A study of Homo sapiens with 6 samples.

Results

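The amino acid response and the unfolded protein response were followed through 41 genes in hTert-HME1, an epithelial line from the human breast that telomerase keeps dividing. The genes were taken by symbol and kept where the mean of 2 raised to the deposited log2 value was at least 10 over the libraries. All 41 listed genes passed, out of 14763 genes at or above that mean and 57820 rows in all. The members nearest the limit were DDIT3, with a mean of 159, and CHAC1, with a mean of 211, so no listed gene lay close to it or below it. They form 2 arms, 19 genes of the ATF4 arm and 22 genes of the chaperone arm. Polyadenylated RNA was sequenced in 6 libraries, all from cells transfected with siRNA and left to recover. Cells labelled BRCA2 siRNA (BRCA2-2) grown without EGF at passage 6 gave 2 libraries, replicates A and B. Cells labelled BRCA2 siRNA (BRCA2-2) grown in complete medium with EGF at passage 4 gave 1 library. Cells with control siRNA (control-1) in complete medium with EGF gave 3 libraries, replicates A and B at passage 6 and P4 at passage 4. Each target was represented by 1 siRNA, in 1 cell line. Control cells without EGF were not analysed here, so siRNA and medium cannot be told apart in the comparison of EGF-free cells with control cells.

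Both arms answer stress through kinases and sensors that act on translation and transcription. In the integrated stress response, kinases that sense scarce amino acids or unfolded proteins phosphorylate the initiation factor eIF2, general translation slows, and the mRNA of the transcription factor ATF4 is translated better. ATF4 then drives genes that import amino acids, make serine, asparagine and proline, and load tRNAs, together with DDIT3 (CHOP), a factor linked to cell death, and PPP1R15A (GADD34), which brings a phosphatase back to eIF2. The chaperone arm serves the endoplasmic reticulum, where the sensors ATF6, IRE1 (ERN1) and PERK (EIF2AK3) are held by the chaperone BiP (HSPA5) until unfolded proteins accumulate. ATF6 and spliced XBP1 then raise chaperones, disulfide isomerases and the degradation machinery. PERK feeds the ATF4 arm, so the 2 arms share a sensor.

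Promoter elements known from each arm were looked for, and 4 promoters that hold one are printed to show the letters. RefSeq promoters (GRCh38.p14) were at hand for 36 of the 41 members, and the 250 bases before the start site were searched on both strands. The letters searched were the endoplasmic reticulum stress element ERSE (CCAAT, then any 9 bases, then CCACG), ERSE-II (ATTGG, any 1 base, CCACG) and the C/EBP-ATF response element CARE (TGATGNAA, where N is any base), none of which contains another. Capitals mark the matches. The CHAC1 match and the CARE match of HERPUD1 lie on the strand opposite to the gene and appear as their reverse complement.
ASNS, asparagine synthetase, minus strand, chr7:97872409-97872658: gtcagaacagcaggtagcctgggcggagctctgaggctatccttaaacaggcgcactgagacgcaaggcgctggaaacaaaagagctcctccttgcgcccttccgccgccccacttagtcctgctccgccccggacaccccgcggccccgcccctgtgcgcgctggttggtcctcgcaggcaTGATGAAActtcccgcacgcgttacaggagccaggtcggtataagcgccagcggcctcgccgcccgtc
CHAC1, a glutathione-degrading enzyme, plus strand, chr15:40953221-40953470: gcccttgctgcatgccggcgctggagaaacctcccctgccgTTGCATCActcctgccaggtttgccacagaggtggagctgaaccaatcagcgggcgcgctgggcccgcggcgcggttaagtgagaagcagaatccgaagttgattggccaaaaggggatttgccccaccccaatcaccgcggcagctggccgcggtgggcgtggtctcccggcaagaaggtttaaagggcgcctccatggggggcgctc
HSPA5, the chaperone BiP, minus strand, chr9:125241344-125241593: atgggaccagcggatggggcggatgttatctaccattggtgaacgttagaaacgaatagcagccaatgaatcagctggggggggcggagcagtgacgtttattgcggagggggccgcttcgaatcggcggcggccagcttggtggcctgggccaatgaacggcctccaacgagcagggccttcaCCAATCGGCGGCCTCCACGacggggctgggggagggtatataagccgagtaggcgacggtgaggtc
HERPUD1, a membrane protein of the degradation machinery, plus strand, chr16:56931892-56932141: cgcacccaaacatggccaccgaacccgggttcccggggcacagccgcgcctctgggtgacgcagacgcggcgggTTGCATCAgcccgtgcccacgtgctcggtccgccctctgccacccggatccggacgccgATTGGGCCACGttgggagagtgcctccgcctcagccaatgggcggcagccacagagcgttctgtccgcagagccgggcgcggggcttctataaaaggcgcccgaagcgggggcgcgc

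Among the 21 chaperone-arm members with a promoter, 7 held ERSE (HSPA5, HSP90B1, XBP1, PDIA6, CALR, CANX and CRELD2) and another 3 held ERSE-II (HERPUD1, SDF2L1 and HYOU1). None of the 15 ATF4-arm members with a promoter held either. CARE was found in 3 of these 15 (ATF3, ASNS and CHAC1) and in 1 chaperone-arm member, HERPUD1, which therefore held an element of each arm. Over the 27305 genes with a promoter, the shares were 0.0916% for ERSE, 0.0659% for ERSE-II and 3.89% for CARE. These consensus letters were first worked out on promoters of some of the same genes, and a match is a stretch of letters, not evidence of binding.

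Some properties of the libraries bear on everything that follows. BRCA2, the gene targeted, read 11.15 and 10.89 on the log2 scale in EGF-free replicates A and B, 10.88 in the BRCA2-labelled library with EGF, and 11.25, 11.24 and 10.19 in control A, B and P4. It was thus not lower in the BRCA2-labelled library with EGF than in the control of the same passage, and the EGF-free libraries differed from all controls by 0.12 (adjusted p = 0.881 in limma). Against the passage 6 controls alone the EGF-free libraries were both lower, with a difference of -0.23 (adjusted p = 0.230), so the direction turned with passage and no difference by siRNA label passed. Over the 14763 genes, EGF-free replicates B and A differed with an SD of 0.308, against 0.119 between control A and B. Basal mammary markers were present, 10 of 10 with a mean of at least 10, and their summed level was 741025 to 797664 in EGF-free libraries, 499467 in the BRCA2-labelled library with EGF and 526649 to 552789 in control. Of the luminal markers 6 of 9 reached that mean, with KRT19, EPCAM and ELF5 below it, and they summed to 3114 to 3348 in EGF-free libraries, 3808 in the BRCA2-labelled library with EGF and 4139 to 4684 in control. Fibroblast markers reached it in 8 of 10, with COL1A2 and PDGFRA below, and summed to 6947 to 7111 in EGF-free libraries, 4374 in the BRCA2-labelled library with EGF and 2252 to 2621 in control. Of the 4 endothelial markers 3 were matched, PECAM1 not being found, and 1 reached that mean, with CDH5 at 0. The matched ones summed to 570 to 746 in EGF-free libraries, 356 in the BRCA2-labelled library with EGF and 267 to 1080 in control, highest in control P4. Mitochondrial transcripts made up 10.8% to 11.6% of the summed level in EGF-free libraries, 7.43% in the BRCA2-labelled library with EGF and 7.69% to 9.76% in control. The part of these differences in the results was not tested, and in bulk RNA fewer cells of a type and less RNA per cell cannot be told apart.

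Within the EGF-free and control groups, libraries lay far apart in much of the ATF4 arm. EGF-free replicate B and control P4 carried high transcripts of the stress regulators, whereas EGF-free replicate A and control A and B did not. ATF3, a stress-induced repressor of transcription, read 8.39 and 10.44 in EGF-free A and B, 8.57 in the BRCA2-labelled library with EGF, and 8.46, 8.36 and 10.05 in control A, B and P4. DDIT3 read 6.49 and 8.05 in EGF-free A and B, 6.57 in the BRCA2-labelled library with EGF, and 6.56, 6.45 and 8.34 in control A, B and P4. PPP1R15A read 10.92 and 12.75 in EGF-free A and B, 11.47 in the BRCA2-labelled library with EGF, and 11.05, 11.09 and 13.17 in control A, B and P4. In each of these 3 genes, 1 library of the EGF-free pair and 1 control library stood high, and the other 4 libraries lay together. The groups therefore overlapped.

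TRIB3, a pseudokinase that damps ATF4 signalling, read 8.95 and 10.61 in EGF-free A and B, 10.001 in the BRCA2-labelled library with EGF, and 9.95, 9.77 and 10.50 in control A, B and P4. ATF4 itself read 13.28 and 13.82 in EGF-free A and B, 14.03 in the BRCA2-labelled library with EGF, and 13.83, 13.73 and 14.40 in control A, B and P4. CEBPB, which binds CARE together with ATF4, was again highest in control P4, at 11.36, and lowest in EGF-free A, at 10.17. ATF4 mRNA thus moved by 0.54 between EGF-free B and A, less than ATF3, which moved by 2.05. ATF4 activity is set largely by translation, which these data do not measure.

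**Figure D1:**
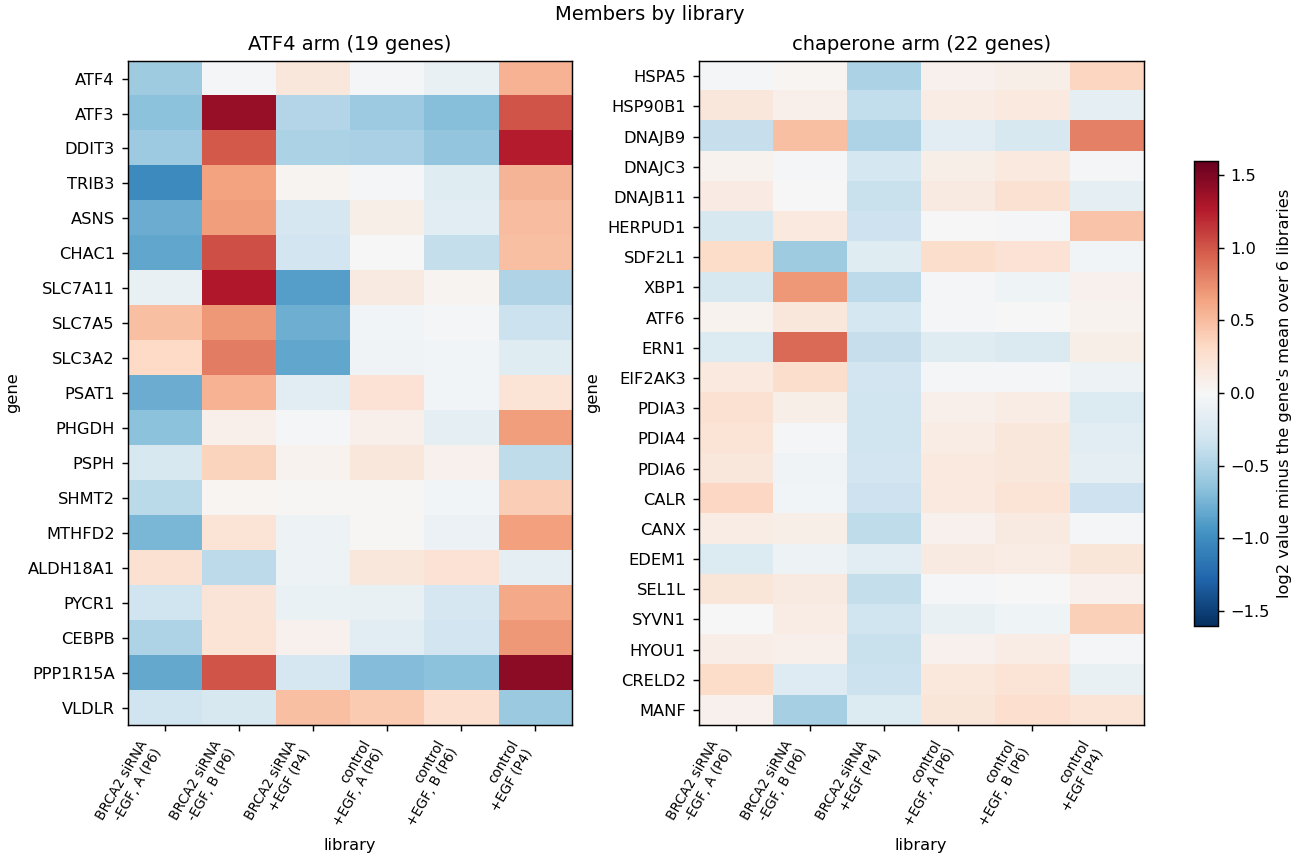
Heat map of the log2 value of each member minus that gene's mean over the 6 libraries (colour scale), for the ATF4 arm on the left and the chaperone arm on the right, with EGF-free libraries first and control libraries last. The ATF4 arm is mostly red in EGF-free B and control P4 and blue in EGF-free A, whereas the chaperone arm is blue in the BRCA2-labelled library with EGF.

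Enzymes of the ATF4 arm repeated the split of the EGF-free pair. ASNS read 11.27 and 12.73 in EGF-free A and B, 11.79 in the BRCA2-labelled library with EGF, and 12.15, 11.88 and 12.55 in control A, B and P4. CHAC1 read 6.75 and 8.62 in EGF-free A and B, 7.29 in the BRCA2-labelled library with EGF, and 7.59, 7.21 and 8.07 in control A, B and P4. PSAT1, the aminotransferase of serine synthesis, read 11.57 and 12.92 in EGF-free A and B, 12.19 in the BRCA2-labelled library with EGF, and 12.59, 12.32 and 12.59 in control A, B and P4. All 3 genes were lowest of the 6 libraries in EGF-free A and highest in EGF-free B.

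Replicate B exceeded replicate A by at least 1 on the log2 scale in 8 of 19 ATF4-arm genes, where 0.867% of all tested genes differed by that much in either direction. These were ATF3, CHAC1 at 1.87, PPP1R15A at 1.83, TRIB3 at 1.66, DDIT3 at 1.56, ASNS at 1.46, SLC7A11 at 1.40 and PSAT1 at 1.35. The linear ratio of B to A was 4.15 for ATF3 and 2.56 for PSAT1. In the chaperone arm 1 of 22 genes differed by as much, ERN1 at 1.12. Replicate B was higher in 18 of 19 ATF4-arm genes, against 9 of 22 in the chaperone arm and 49.3% of all tested genes. The exception was ALDH18A1, the first enzyme of proline synthesis, with 12.08 in A and 11.43 in B. The median absolute difference between B and A was 0.73 in the ATF4 arm, 0.15 in the chaperone arm and 0.18 over all genes, whereas control A and B differed by 0.11, 0.05 and 0.06. With 1 library on each side there is no test of the difference between B and A.

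EGF-free B and control P4 were the 2 highest of the 6 libraries in 11 of 19 ATF4-arm genes and 5 of 22 chaperone-arm genes, against 13.9% of all genes. The 5 chaperone-arm genes were DNAJB9 and HERPUD1, which serve refolding and degradation, the sensor ERN1, XBP1 and the ubiquitin ligase SYVN1. Across genes, the difference of EGF-free B minus A correlated with that of control passage 6 minus passage 4 at r = -0.63 in the ATF4 arm (19 genes), r = -0.69 in the chaperone arm (22 genes) and r = -0.49 over all 14763 genes. The 2 differences share no library. Genes are not independent replicates, so the correlations describe the libraries and carry no p-value.

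From the lowest to the highest of the 6 libraries, ATF4-arm genes spanned between 0.66 in ALDH18A1 and 2.25 in PPP1R15A on the log2 scale. Chaperone-arm genes spanned between 0.41 in EDEM1 and 1.30 in DNAJB9. SHMT2 and MTHFD2, the mitochondrial enzymes that pass on one-carbon units from serine, both had their lowest value in EGF-free A, at 11.93 and 11.39, and their highest in control P4, at 12.76 and 12.78. PYCR1 did the same, with 9.16 in EGF-free A and 10.10 in control P4. PSPH, the last enzyme of serine synthesis, had 9.97 in EGF-free B as its highest value and 9.21 in control P4 as its lowest, so it left the pattern. Among the chaperones, HSP90B1 (GRP94) spanned 0.58, DNAJC3 0.44 and HYOU1, the exchange factor of BiP, 0.49, each with its lowest value in the BRCA2-labelled library with EGF.

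**Figure D2:**
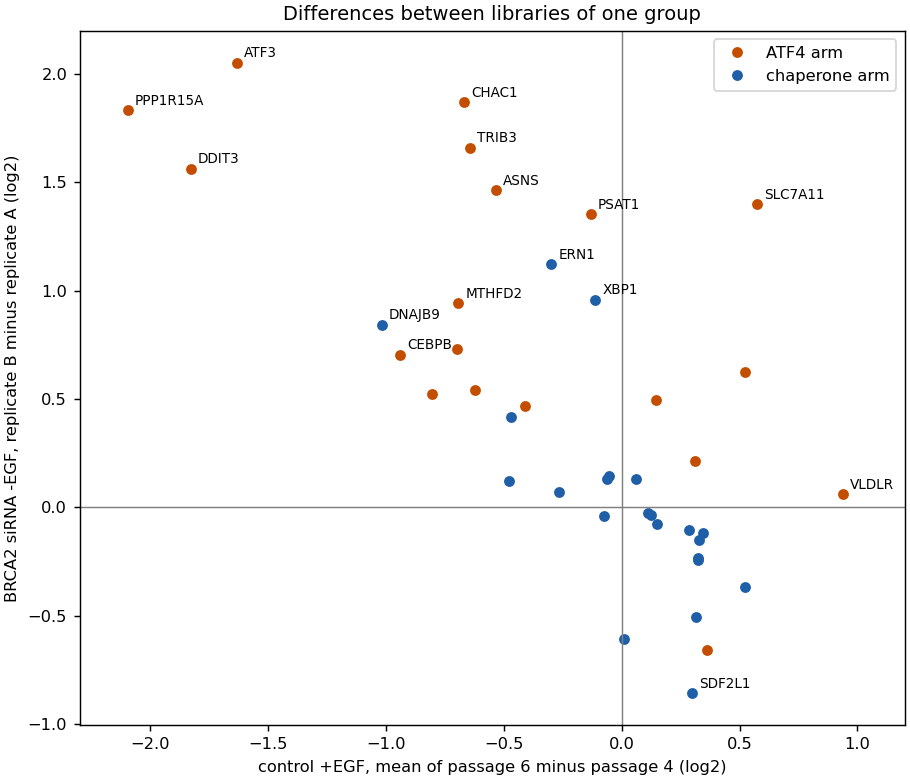
Each point is 1 member (ATF4 arm in orange, chaperone arm in blue), with the log2 difference of control passage 6 minus passage 4 on the horizontal axis and that of EGF-free replicate B minus A on the vertical axis. PPP1R15A, ATF3 and DDIT3 sit at the upper left, higher in EGF-free B and lower in control at passage 6. Most chaperone-arm genes lie near 0 on the vertical axis. On the horizontal axis that arm runs from -1.02 to 0.52, with a median absolute difference of 0.29, against 0.31 over all genes.

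The first comparison set EGF-free cells labelled BRCA2 siRNA, at passage 6, against control cells with EGF. It changes siRNA label and medium together, and the controls hold both passages. None of the 41 members passed an adjusted p below 0.05 in limma, with 126 genes higher and 20 lower over the whole table (0.989% of tested genes). At an unadjusted p below 0.05 there were 3 members, SLC7A5, SLC3A2 and EDEM1, whereas 17.2% of all genes reached it. The groups did not overlap in 8 of 41 members, 2 in the ATF4 arm and 6 in the chaperone arm, against 42.0% of all genes. The median difference was -0.18 in the ATF4 arm, 0.02 in the chaperone arm and -0.03 over all genes. Without EGF-free replicate B the ATF4-arm median was -0.57, and without replicate A it was 0.42, so its sign was set by which of the pair was kept.

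Against all 3 controls, the amino acid transporters gave the highest differences of the ATF4 arm. SLC7A5 (LAT1), which imports leucine and other large neutral amino acids, read 15.03 and 15.24 in EGF-free A and B, 13.77 in the BRCA2-labelled library with EGF, and 14.50, 14.53 and 14.21 in control A, B and P4. SLC3A2 (4F2hc), the heavy chain that pairs with LAT1 and with xCT, read 14.08 and 14.58 in EGF-free A and B, 12.93 in the BRCA2-labelled library with EGF, and 13.70, 13.72 and 13.57 in control A, B and P4. SLC7A11 (xCT), the cystine importer, read 12.88 and 14.28 in EGF-free A and B, 12.12 in the BRCA2-labelled library with EGF, and 13.14, 13.04 and 12.52 in control A, B and P4. SLC7A5 and SLC3A2 were higher in both EGF-free libraries than in any other, while SLC7A11 overlapped because EGF-free A lay below control A and B. Both EGF-free libraries exceeded the other 4 in 5 of 41 members, the other 3 being ATF6, EIF2AK3 and SEL1L, against 16.6% of all genes.

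SLC7A5 averaged 15.14 ± 0.15 in EGF-free cells and 14.41 ± 0.18 in control cells (SD, n = 2 and 3), a difference of 0.72 ± 0.16 (SE). Its adjusted p in limma was 0.129, and SLC3A2 differed by 0.67 ± 0.18 with an adjusted p of 0.179. SLC7A11 differed by 0.68 ± 0.43, with an adjusted p of 0.459. Against the passage 6 controls alone, in a fit with a passage term, SLC7A5 was higher by 0.62 ± 0.10 and passed (adjusted p = 0.0378 in limma). SLC3A2, at 0.62 ± 0.17, did not pass there (adjusted p = 0.0938, range 0.0938 to 0.7002 over the alternatives). Over the alternatives SLC7A5 ran from 0.61 to 0.90 with adjusted p from 0.0378 to 0.682, the highest without EGF-free replicate B.

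VLDLR, the very low density lipoprotein receptor and a target of ATF4, was the other member that passed among the passage 6 libraries. It read 8.001 and 8.06 in EGF-free A and B, 8.80 in the BRCA2-labelled library with EGF, and 8.74, 8.59 and 7.73 in control A, B and P4. The EGF-free values lay below both passage 6 controls and above control P4, so the difference was -0.32 ± 0.32 against all controls (adjusted p = 0.634 in limma) and -0.63 ± 0.10 at passage 6 (adjusted p = 0.0350). Over the alternatives the adjusted p of VLDLR ran from 0.0346, without control P4, to 0.895. In that fit 2 of 41 members passed, against 6.44% of all genes.

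PHGDH, which opens serine synthesis, read 10.16 and 10.89 in EGF-free A and B, 10.80 in the BRCA2-labelled library with EGF, and 10.89, 10.66 and 11.47 in control A, B and P4. It gave the lowest difference of the arm, -0.49 ± 0.32, with overlapping groups and an adjusted p of 0.472 in limma. The differences of the 5 serine and one-carbon genes (PSAT1, PHGDH, PSPH, SHMT2 and MTHFD2) ran from -0.49 to 0.10, and those of ASNS, ALDH18A1 and PYCR1, which makes proline, were -0.20, -0.18 and -0.13. ATF4 differed by -0.43 ± 0.27 (adjusted p = 0.449). The remaining regulators, ATF3, DDIT3, TRIB3, CEBPB and PPP1R15A, gave differences between -0.29 and 0.46 with standard errors of 0.36 to 0.82, each wider than the difference itself. Against the passage 6 controls alone ATF3 stood at 1.002 ± 0.67, DDIT3 at 0.77 ± 0.52 and PPP1R15A at 0.76 ± 0.60, and none of the 3 passed in limma (adjusted p = 0.357, 0.360 and 0.423). These differences came from EGF-free B, since EGF-free A lay close to or below the passage 6 controls. CHAC1 differed by 0.07 ± 0.57.

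In the chaperone arm, EGF-free and control cells differed little. MANF, a secreted chaperone partner of BiP, read 11.74 and 11.13 in EGF-free A and B, 11.45 in the BRCA2-labelled library with EGF, and 11.86, 11.93 and 11.88 in control A, B and P4. EDEM1, which sends misfolded glycoproteins to degradation, read 10.94 and 11.08 in EGF-free A and B, 10.99 in the BRCA2-labelled library with EGF, and 11.30, 11.28 and 11.34 in control A, B and P4. Both genes were lower in the 2 EGF-free libraries than in every control library. The differences were -0.46 ± 0.19 for MANF (adjusted p = 0.309 in limma) and -0.30 ± 0.11 for EDEM1 (adjusted p = 0.265). SDF2L1, a cofactor of BiP, read 9.13 and 8.28 in EGF-free A and B, 8.65 in the BRCA2-labelled library with EGF, and 9.13, 9.07 and 8.80 in control A, B and P4. Its low value came from EGF-free B alone, and the difference was -0.30 ± 0.27.

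HSPA5 read 15.54 and 15.61 in EGF-free A and B, 15.07 in the BRCA2-labelled library with EGF, and 15.65, 15.67 and 15.93 in control A, B and P4. It differed by -0.17 ± 0.15 between EGF-free and control cells (adjusted p = 0.574 in limma), with the EGF-free libraries just below the lowest control. The 5 disulfide isomerases and lectin chaperones (PDIA3, PDIA4, PDIA6, CALR and CANX), which fold glycoproteins, gave differences between 0.00 and 0.17, with overlapping groups in all 5. The other chaperones and cofactors of the arm, HSP90B1, DNAJB9, DNAJC3, DNAJB11, HYOU1 and CRELD2, gave differences between -0.07 and 0.09. Of the remaining degradation genes, HERPUD1 differed by -0.19 ± 0.21, SEL1L, the partner of SYVN1 in a ligase complex, by 0.15 ± 0.11 and SYVN1 by -0.00 ± 0.19.

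Against control cells, the sensors and their transcription factor lay somewhat higher in EGF-free cells, and none passed. ERN1 read 9.39 and 10.51 in EGF-free A and B, 9.24 in the BRCA2-labelled library with EGF, and 9.41, 9.37 and 9.69 in control A, B and P4. XBP1 read 12.23 and 13.19 in EGF-free A and B, 12.07 in the BRCA2-labelled library with EGF, and 12.48, 12.42 and 12.56 in control A, B and P4. In both genes EGF-free B was the highest library and EGF-free A lay within or below the control range. EIF2AK3 read 10.46 and 10.59 in EGF-free A and B, 9.99 in the BRCA2-labelled library with EGF, and 10.28, 10.28 and 10.22 in control A, B and P4. ATF6 read 11.41 and 11.54 in EGF-free A and B, 11.08 in the BRCA2-labelled library with EGF, and 11.33, 11.36 and 11.41 in control A, B and P4. EIF2AK3 lay above every control library, at 0.26 ± 0.11 (adjusted p = 0.310 in limma), whereas ATF6 in EGF-free A about equalled control P4, at 0.11 ± 0.11 (adjusted p = 0.653). ERN1 differed by 0.46 ± 0.33 (adjusted p = 0.516) and XBP1 by 0.23 ± 0.28 (adjusted p = 0.711). The spliced form of XBP1 is not separated in a table of genes.

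**Figure D3:**
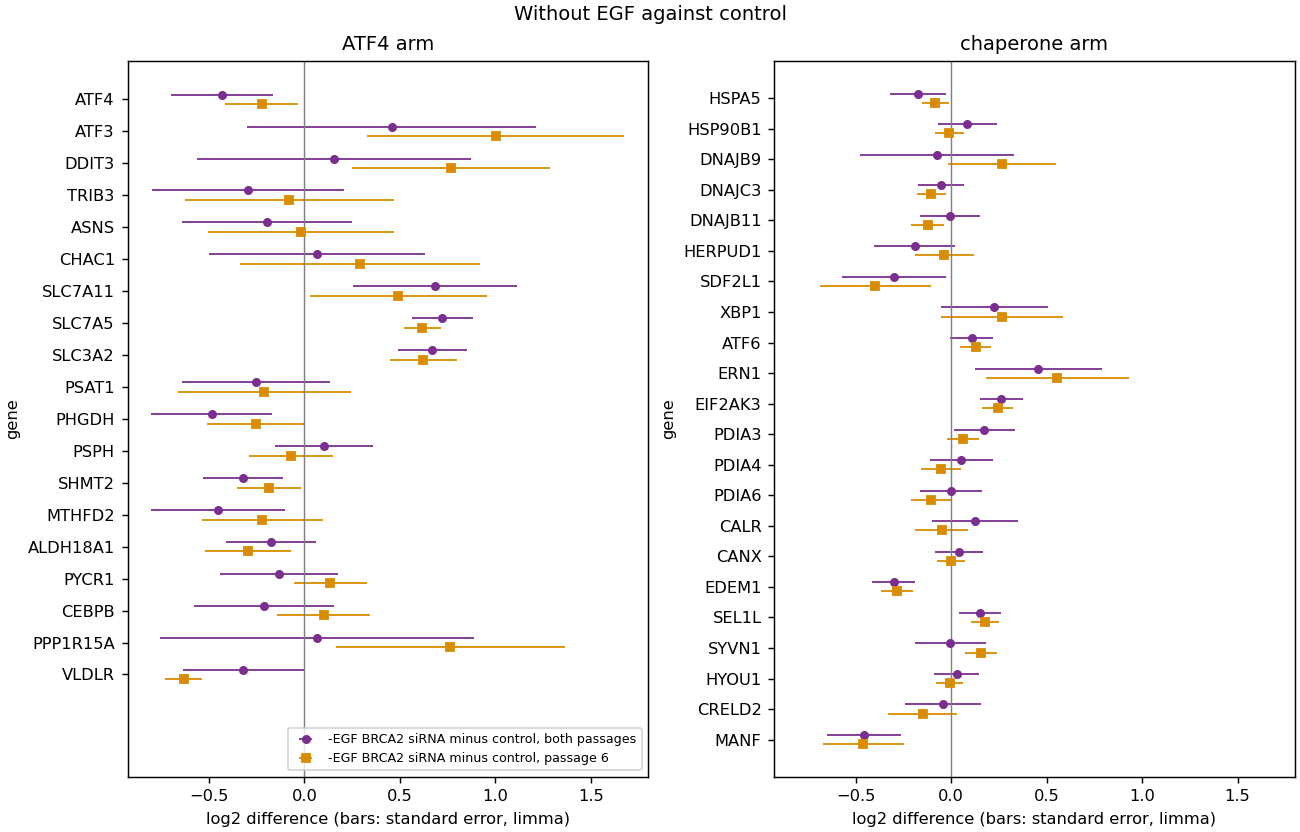
Log2 difference of EGF-free minus control cells for each member, with bars of 1 standard error from limma, against all controls (purple circles) and against the passage 6 controls with a passage term (orange squares). SLC7A5, SLC3A2 and SLC7A11 lie to the right in the ATF4 arm, its regulators have the widest bars, and most of the chaperone arm lies close to 0.

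The second comparison set the BRCA2-labelled library with EGF against control cells in the same medium. It rests on 1 library, which takes its spread in the fit from the other groups, and on an siRNA label for which BRCA2 was not lower than in the control of the same passage. None of the 41 members passed, nor did any of the 14763 genes (0% called), with 412 genes and 6 members at an unadjusted p below 0.05. All 22 chaperone-arm genes lay below control, with differences from -0.68 to -0.26 and a median of -0.39, where 51.4% of all genes lay below 0 and the median over all genes was -0.01. In the ATF4 arm 16 of 19 lay below, with a median of -0.28. That median was -0.63 against control P4 alone and 0.02 without control P4, so its sign depended on that control library.

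HSPA5 was furthest from control among the chaperones, at -0.68 ± 0.18 (adjusted p = 0.9997 in limma). DNAJB9, a cofactor of BiP, read 9.83 and 10.67 in EGF-free A and B, 9.71 in the BRCA2-labelled library with EGF, and 10.02, 9.94 and 11.002 in control A, B and P4. It differed by -0.62 ± 0.51. Folding enzymes, sensors and degradation genes alike were low, with medians of -0.37 for the 5 isomerases and lectin chaperones, -0.28 for the 4 sensors and factors, -0.39 for the 4 degradation genes and -0.43 for the 9 chaperones and cofactors. The BRCA2-labelled library with EGF was the lowest of the 6 in 19 of 22 chaperone-arm genes and 3 of 19 ATF4-arm genes, against 16.4% of all genes. The 3 chaperone-arm exceptions were EDEM1, lowest in EGF-free A, and SDF2L1 and MANF, lowest in EGF-free B. Under centred or quantile-normalised values the count was 18 of 22, and all 22 still lay below control.

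Against control P4 alone, the library of the same passage, all 22 chaperone-arm genes again lay below, with a median of -0.34. The sizes differed: DNAJB9 was furthest at -1.297, HSPA5 was at -0.86, HERPUD1 at -0.78 and SYVN1 at -0.71, while CALR was at -0.00. In the ATF4 arm, the passage 4 pair differed by -1.76 for DDIT3, -1.69 for PPP1R15A and -1.47 for ATF3, all 3 being high in control P4 as given above. VLDLR ran the other way, at 1.08. The summed basal markers were lower in this library than in any control and the summed fibroblast markers higher, at the values given above, and their part in the result was not tested.

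**Figure D4:**
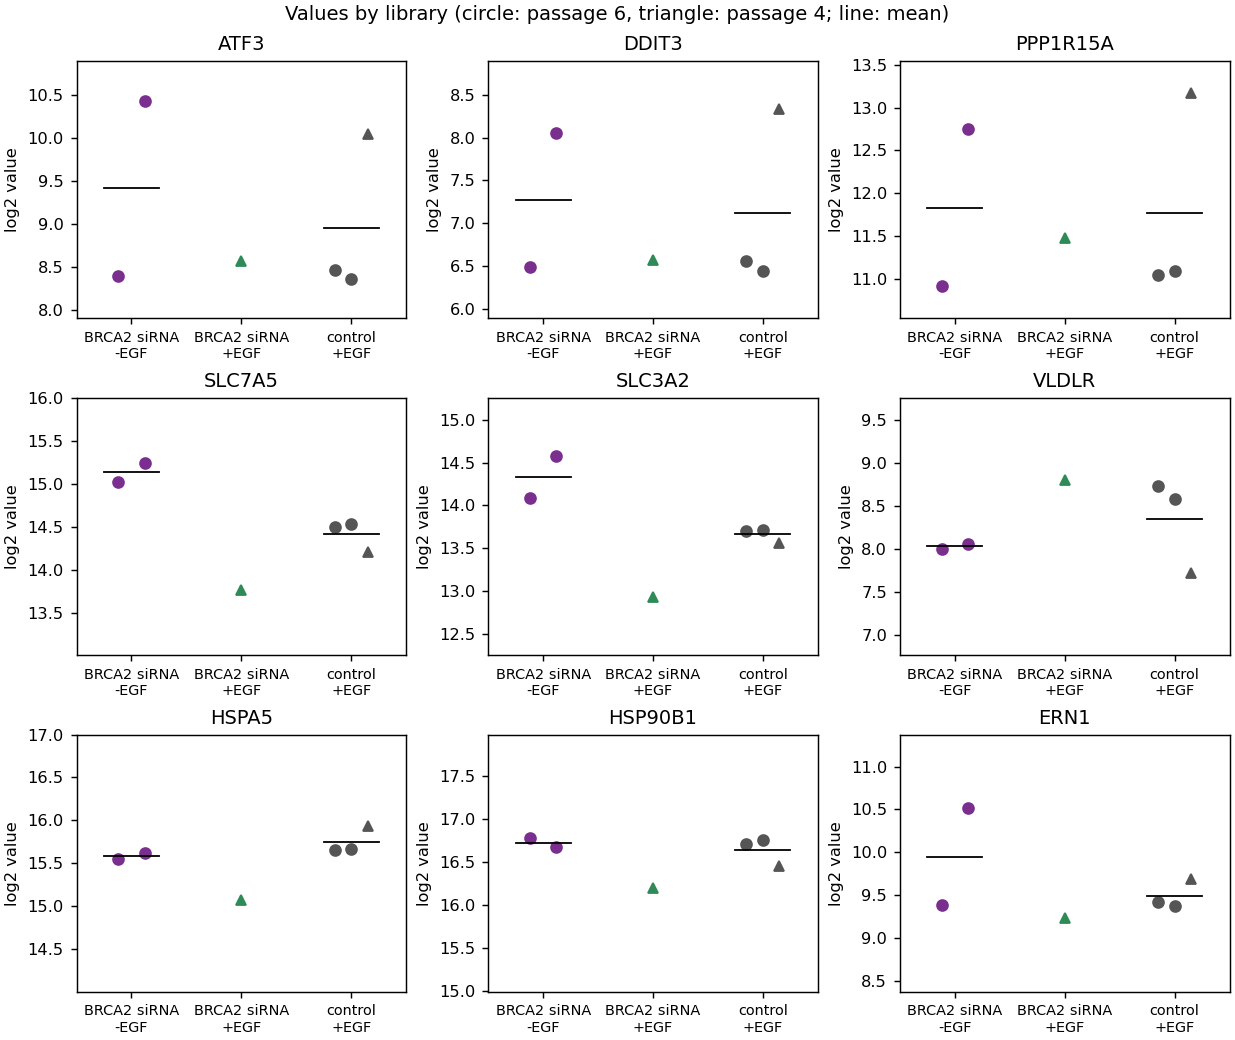
Log2 values of 9 members in each library (circles for passage 6, triangles for passage 4), with a line at the mean of the EGF-free and control groups. EGF-free and control cells each split in ATF3, DDIT3 and PPP1R15A. The transporters SLC7A5 and SLC3A2 are highest in the EGF-free libraries, and HSPA5 and HSP90B1 are lowest in the BRCA2-labelled library with EGF.

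The third comparison set EGF-free cells against the library with EGF that carries the same siRNA label. It changes medium and passage together. None of the 41 members passed in limma, against 0.203% of all genes. At an unadjusted p below 0.05 there were 10 members and 16.4% of all genes. Without a passage term the transporters differed most: SLC7A11 by 1.46 ± 0.58 (adjusted p = 0.297), SLC3A2 by 1.40 ± 0.24 (adjusted p = 0.0968) and SLC7A5 by 1.37 ± 0.22 (adjusted p = 0.0870). Without EGF-free replicate B the difference of SLC7A11 was 0.76, and without replicate A it was 2.16. The BRCA2-labelled library with EGF was itself below every control library in these transporters. Against the control mean it lay at -0.78 for SLC7A11, -0.73 for SLC3A2 and -0.64 for SLC7A5. Part of each gap thus lies in that 1 library. In the chaperone arm 21 of 22 were above 0 with a median of 0.44, and the low library is the one described for the second comparison. ERN1 at 0.71 ± 0.45 and XBP1 at 0.64 ± 0.38 had the largest differences there, but without EGF-free replicate B they were 0.15 and 0.16, and without replicate A 1.28 and 1.12. The ATF4 arm was split, 10 above and 9 below 0, with a median of 0.04. With the passage difference of the controls taken off, SLC7A5 at 1.06, HSPA5 at 0.78 and VLDLR at -1.71 passed in limma, against 3.85% of all genes. SLC7A5 and HSPA5 lay close below the threshold of 0.05, and each group at passage 4 was 1 library. The regulators had a median of 0.08 without the passage term. Their control passage difference, which rests on control P4 as its only passage 4 library, had a median of -1.29. With that difference taken off, the regulators had the higher differences, although none passed: their median was 1.596 and that of the transporters 1.06. Without control P4 the number was 10, against 16.3% of all genes, namely SLC7A5, SLC3A2, VLDLR, HSPA5, HSP90B1, EIF2AK3, PDIA3, CANX, SEL1L and HYOU1. This comparison shares libraries with the first and the second, so the 3 are not independent.

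The fourth comparison stayed within control cells and set passage 6 against passage 4. Of the 41 members 2 passed, against 20.1% of all genes (1138 higher and 1825 lower). VLDLR rose by 0.94 ± 0.12 at passage 6 (adjusted p = 0.0235 in limma), with passage 6 values of 8.74 and 8.59 against 7.73 at passage 4. SYVN1, the ubiquitin ligase that clears misfolded proteins from the endoplasmic reticulum, read 9.87 and 9.99 in EGF-free A and B, 9.55 in the BRCA2-labelled library with EGF, and 9.75, 9.81 and 10.26 in control A, B and P4. It fell by 0.48 at passage 6, with an SE of 0.10 and an adjusted p of 0.0403 in limma. Passage 4 is a single library, and neither call held when control A or control B was left out. The adjusted p over the alternatives ran from 5.07e-07 to 0.206 for VLDLR and from 4.38e-06 to 0.290 for SYVN1, and both missed the threshold with control A and B averaged and with no filter on low values. SYVN1 also missed it with centred or quantile-normalised values.

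PPP1R15A, DDIT3 and ATF3 were the members with the widest gap between passages. All 6 regulators lay below 0 at passage 6, with a median of -1.29, and none passed: PPP1R15A differed by -2.10 ± 0.74 (adjusted p = 0.102 in limma), DDIT3 by -1.83 ± 0.63 (adjusted p = 0.0997) and ATF3 by -1.63 ± 0.82 (adjusted p = 0.201). On the linear scale control P4 held 4.28 times the PPP1R15A level of the passage 6 controls, 3.55 times that of DDIT3 and 3.10 times that of ATF3. DNAJB9 had the widest gap of the chaperone arm, at -1.02 ± 0.35 (adjusted p = 0.0966). The median was -0.62 in the ATF4 arm and 0.09 in the chaperone arm, against -0.03 over all genes. Over the alternatives the ATF4-arm median ran from -0.83 to -0.18, but every one of them rests on the same control P4 library.

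The isomerases and lectin chaperones ran the opposite way from the regulators. All 5 lay above 0 at passage 6, with a median of 0.32. CALR, calreticulin, read 15.60 and 15.24 in EGF-free A and B, 14.94 in the BRCA2-labelled library with EGF, and 15.44, 15.50 and 14.95 in control A, B and P4. Both passage 4 libraries were low, and the control passages differed by 0.52 ± 0.17 (adjusted p = 0.0882 in limma). With quantile-normalised values CALR, at 0.58, and PDIA3, at 0.39, passed, whereas PDIA4, PDIA6 and CANX did not. The test of these passage differences takes its spread partly from the EGF-free pair, and that pair was far apart in the regulators. Leaving out either EGF-free library, 35 of 41 members passed, against 66.6% (without replicate A) and 66.7% (without replicate B) of all genes, and the spread then came from control A and B alone.

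Further genes of the same pathways were read from 4 lists of non-members. Of 31 other amino acid response genes none passed in the first 3 comparisons. In the fourth 1 passed, against 20.1% of all genes. It was SHMT1 of one-carbon metabolism, which rose by 0.66 (adjusted p = 0.0381 in limma). Of these 31 genes, 11 were higher by at least 1 in EGF-free B than in A, against 0.867% of all genes that differed so in either direction. GDF15, a stress-induced cytokine, had the largest difference in the first comparison, at -0.74 ± 0.58 (adjusted p = 0.544). ATF5 was the 1 of these 31 genes that passed among the passage 6 libraries, against 6.44% of all genes. Its difference was -0.68 (adjusted p = 0.0453 in limma).

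All 20 aminoacyl-tRNA synthetases, which charge tRNAs and are common ATF4 targets, lay below control in EGF-free cells, where 53.9% of all genes did. Their median was -0.26 and none passed. RARS1 differed by -0.51 ± 0.17 (adjusted p = 0.232 in limma). FARSB was the 1 of the 20 that passed among the passage 6 libraries, at -0.49 (adjusted p = 0.0366), against 6.44% of all genes. None of the 20 differed by as much as 1 between EGF-free B and A.

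A further 45 genes were listed for folding, translocation and export at the endoplasmic reticulum. Of these, 41 lay below control in the BRCA2-labelled library with EGF, against 51.4% of all genes. The median of the 45 was -0.27, and none passed. Between control passages 1 of the 45 passed as higher and 4 as lower, whereas 20.1% of all genes passed. Those that fell included DNAJB2, SEC24D and ERO1B, by 1.59, 0.89 and 0.66 on the log2 scale (adjusted p = 0.0231, 0.0284 and 0.0379 in limma). Among the passage 6 libraries, 2 of the 45 passed between EGF-free and control cells, against 6.44% of all genes. SEC61G (adjusted p = 0.0304 in limma) and SEC23B (adjusted p = 0.0487) were lower in EGF-free cells, by 0.54 and 0.39. Of 22 further degradation genes 16 lay below control in the BRCA2-labelled library with EGF and none passed. Between control passages 2 of the 22 passed, against 20.1% of all genes. They were UBE2J1 and RNF5, a conjugating enzyme and a ligase of ubiquitin, which fell by 0.78 and 0.69 (adjusted p = 0.0234 and 0.0236 in limma).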

How the data were processed

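Log2 values for 57820 Ensembl identifiers in 6 library columns (0 left over) were deposited by the authors. The submitters' processing notes name TopHat2 2.0.11, DESeq2 and hg19. How reads were counted, which annotation served and which transformation followed is not given in the sources used here. Values ran from -1.98 to 19.93, and 25986 rows were 0 in every library. Summed on the linear scale, libraries held 29907161 to 32731859, which are normalised totals, so the depth and the precision it gives are unknown, and a shrinking transformation would understate differences of low genes.

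Symbols were matched on Ensembl identifiers (89.9% of rows, 96.4% of tested genes). Members and lists were chosen with earlier results of these data known. The 14763 genes whose mean linear value reached 10 were fitted in limma 3.58.1 (R 4.3.3; lmFit, eBayes with trend and robust prior, two-sided) on the log2 values, with Benjamini-Hochberg adjustment over all of them and a threshold of 0.05. The first 3 comparisons came from 1 fit of 3 groups (3 residual degrees of freedom), and the fourth and the passage-matched values from a fit of group plus passage (2). The fit of 3 groups was tested on simulated data with independent noise, for the first comparison only. The fit with a passage term was not tested in this way. The 15 alternatives changed the passage term, averaging control A and B, the replicate block, the filter, the scaling, the prior and each library left out. Labels call the replicates biological, but nothing says that they came from separate cultures, so p-values measure only the spread between these libraries. Control A and B were kept as 2 libraries under their different letters.

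Values in every library are given for members past the threshold, for those with the largest differences in each comparison and for the sensors and central factors. ATF3, TRIB3, ASNS, CHAC1 and PSAT1 were named in full after their values were seen, since replicates A and B differed by at least 1. The matched symbols include pseudogenes of ATF4, ASNS, SLC7A5, PSAT1, PSPH, MTHFD2, HSPA5, XBP1 and PDIA3. Reads could be shared with these copies, and the counting is not stated. Promoter coordinates are those of RefSeq's GRCh38.p14 and were not joined to the hg19 table by position. SLC7A11, PSPH, SHMT2, PYCR1 and PDIA3 had no matched promoter sequence.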

Additional observations from a re-analysis of the deposited data

How the results depend on the processing

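Under 15 alternatives no called value changed sign, but some values that were not called did. In the first comparison SLC7A11 ran from -0.02 to 1.38, XBP1 from -0.25 to 0.71, ERN1 from -0.10 to 1.02 and SDF2L1 from -0.73 to 0.13. The other named members kept their sign there. Of 400 alternative values for named members 369 kept their side of the threshold or their size, 15 passed newly, 12 no longer passed and 4 moved. In the first comparison, 2 members passed with a passage term, the range over leaving out 1 library each was 0 to 2 (2 without control P4), the chaperone median was 0.13 after quantile normalisation, and the ATF4-arm median ran from -0.57 to 0.42 without 1 library. No member passed there with plain eBayes. In the third comparison, 3 members passed with a passage term (medians 0.73 in the ATF4 arm and 0.29 in the chaperone arm), and leaving out 1 library gave 0 to 10 members and an ATF4-arm median of -0.52 to 0.61. In the comparison of control passages, the number of members was 0 with control A and B averaged, 0 with no filter on low values, 1 with centred libraries, and 0 to 35 when 1 library was left out. The chaperone median there was 0.16 centred and 0.16 quantile normalised, and with quantile normalisation VLDLR, PDIA3 and CALR passed. The cause of these shifts was not tested. For the third comparison, leaving out control P4 kept each difference of the main fit, since no control library enters it, and only the tests moved. Averaging or leaving out libraries also leaves fewer degrees of freedom, and the part of this was not tested either.

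At passage 6 the replicate letters give only 2 pairs across groups, and both passage 4 libraries also carry the letter A. The replicate block therefore put the passage 4 libraries together with the A libraries of passage 6. The labels do not say that a letter marks a shared day. Deviations of same-lettered libraries correlated at -0.17, so the letters were not taken as pairing. With the replicate block, 0 members passed in each of the first 3 comparisons, and 4 in the fourth (PYCR1, CEBPB, VLDLR and DNAJB9, so SYVN1 was lost and 3 others gained). Letters crossed, an alternative chosen after seeing the data, gave 0, 0, 0 and 4 members, again without SYVN1. The ATF4-arm median of the fourth was -0.83 with the block, and that of the second ran from -0.63 with a passage term to 0.02 without control P4. Over all genes in the first comparison, 146 calls became 950 with a passage term, 6 with the block, 112 crossed, 37 with controls averaged, 87 unfiltered, 94 at a mean of at least 50, 951 without control P4, 29 and 38 without control A and B, and 0 without either EGF-free library. The 30 calls of the third became 569 with a passage term, 0 with the block, 10 crossed, 11 with controls averaged, 18 unfiltered, 13 at a mean of at least 50, 56 with plain eBayes, and 0 to 2404 without 1 library. The 2963 calls of the fourth became 0 with controls averaged or with no filter, and 0 to 9849 without 1 library. Nothing could be computed for the second or the third comparison without the BRCA2-labelled library with EGF, or for the fourth without control P4. Depth is unknown, so its limit on low genes such as DDIT3 and CHAC1 could not be given.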
